A study of Mus musculus with 36 samples.

Results

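The genes examined here encode the enzymes and regulators that copy DNA during S phase: 41 listed genes, all of them found among the 40205 features counted. They were followed in 36 RNA-seq libraries of fetal mouse neural stem cells (NSCs) and of the extracellular vesicles (EVs) that these cells secreted, with and without ethanol. The cells came from the dorsal telencephalon of C57BL/6J (Ai14) fetuses at gestational day 12.5, were pooled by sex within a litter, and were grown as non-adherent neurospheres in serum-free medium with mitogens. Each of 3 pregnancies, called set 3, set 4 and set 5, gave 1 female and 1 male culture, so there were 6 cultures. Each culture was kept for 5 days in 0 mg/dL ethanol (control), 120 mg/dL (moderate) or 320 mg/dL (heavy), and a cell library and an EV library were made at each dose. A group defined by sex, dose and location therefore held 3 libraries, and each dose held 6 cell and 6 EV libraries. Ethanol was the sole agent that differed between doses, and the controls shared the mouse strain, the mitogenic medium, the medium change on day 3 and the sealed flasks. A sample was 4 pooled flasks, and the cultures had been passaged 7 to 10 times. The passage of each culture was not among the labels, so passage and pregnancy cannot be told apart. The neurospheres grew outside the embryo, without the blood vessels and other tissues that surround this neuroepithelium.

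A cell commits to S phase when cyclin E kinases and E2F transcription factors switch on the genes for DNA synthesis. Licensing has by then loaded the ring of MCM proteins at origins. A helicase then unwinds the strands, and polymerases held by the sliding clamp PCNA copy them, while nucleotides, histones and fork protection are supplied alongside. NSCs of the early cortical wall divide quickly, and transcripts of these genes are widely read as a sign of how many cells of a population are copying DNA. EVs carry RNA out of a cell, including fragments of messenger RNA. In bulk libraries, fewer cells in S phase and less S-phase RNA per cell cannot be told apart.

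Cell libraries held 26.6 to 55.3 M counts (median 37.8 M, where M is 1e6) and EV libraries 0.959 to 5.51 M counts (median 3.83 M). All 41 members reached at least 10 counts in every cell library, against 17 to 40 members in an EV library, so EV values carry more counting error. The lowest number, 17 members, was in the EV library of the female culture of set 4 at 320 mg/dL. Levels below are in CPM, each count divided by the library size in M, with library sizes scaled by TMM over all 36 libraries. NSC markers (Nes, Pax6, Hes5, Vim, Fabp7, Slc1a3, Msi1) summed to 2589 to 4089 CPM in cells, neuron markers to 427 to 877 CPM and glial lineage markers to 128 to 296 CPM. Microglia markers summed to at most 0.641 CPM and red blood cell markers to at most 0.0787 CPM in cells. In EVs the endothelial and mesenchymal markers summed to 2.18 to 37.3 CPM. Sox2, a defining NSC marker, was listed at 0 counts in all 36 libraries, as was the S-phase kinase gene Cdk2. Sox2 lies within the long noncoding gene Sox2ot, which had 348 to 2297 counts in cell libraries, and Cdk2 is the neighbour of Pmel, which had 24 to 58. How reads in overlapping genes were counted was not given in the sources used here, so these zeros are not read as absent expression.

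Promoters of 33 of the 41 members were held in the RefSeq table of mouse build GRCm38.p6 (300 bases each, 250 before and 50 after the start). An E2F motif (TTTCCCGC, TTTGGCGC, TTTCGCGC or TTTGCCGC, on either strand) was present in 12 of these 33 promoters (36.4%) and in 2.6% of the 27025 genes of that table. The 12 were those of Mcm3, Mcm5, Mcm6, Mcm7, Cdc6, Rfc3, Pola1, Pold3, Hells, Cdca7, Clspn and Dtl. The CCAAT box was found in 63.6% of member promoters against 41.1% of all, the GC box GGGCGG in 66.7% against 38.2%, and the CHR element TTTGAA in 18.2% against 20.2%. Motif matches are letters in a window and were not shown to be bound. Below are the 200 bases upstream of the start of 4 of these 12 members, printed 5′ to 3′ on the strand of the gene. Members without a match, such as Ung, also differed widely among cultures in cells. A link between the motif and the differences among cultures was not tested. Capitals mark the E2F matches, of which those of Mcm5 and the first pair of Mcm6 overlap on opposite strands.
Mcm5 promoter, chr8:75109309-75109508 (+): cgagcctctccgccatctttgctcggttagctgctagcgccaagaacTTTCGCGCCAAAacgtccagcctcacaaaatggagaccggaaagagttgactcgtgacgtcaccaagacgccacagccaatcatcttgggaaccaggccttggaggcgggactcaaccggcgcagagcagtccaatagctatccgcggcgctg
Mcm6 promoter, chr1:128359706-128359905 (-): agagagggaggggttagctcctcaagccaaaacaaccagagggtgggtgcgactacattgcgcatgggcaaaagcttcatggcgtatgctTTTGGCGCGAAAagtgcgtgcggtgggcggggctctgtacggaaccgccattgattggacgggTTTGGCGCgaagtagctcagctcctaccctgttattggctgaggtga
Cdc6 promoter, chr11:98907951-98908150 (+): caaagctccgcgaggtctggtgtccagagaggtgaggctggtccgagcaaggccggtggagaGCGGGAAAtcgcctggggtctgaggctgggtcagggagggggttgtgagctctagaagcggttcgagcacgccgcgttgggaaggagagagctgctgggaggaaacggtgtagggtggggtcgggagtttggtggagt
Hells promoter, chr19:38930790-38930989 (+): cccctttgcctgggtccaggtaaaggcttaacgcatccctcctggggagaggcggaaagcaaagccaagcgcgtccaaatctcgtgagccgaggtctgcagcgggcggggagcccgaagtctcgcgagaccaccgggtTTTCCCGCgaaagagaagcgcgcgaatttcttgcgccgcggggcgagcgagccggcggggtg

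The first question was whether 5 days of ethanol changed the S-phase program of the cells, and no member passed the test at either dose. Summed over the 41 members, the level in cells ran from 481 to 1986 CPM at 0 mg/dL (median 808), from 489 to 1680 CPM at 120 mg/dL (median 891) and from 505 to 1582 CPM at 320 mg/dL (median 921). The 3 ranges overlapped almost wholly, and each spanned the gap between cultures described below. At 320 against 0 mg/dL, 0 of 41 members were called (edgeR quasi-likelihood test with the culture as block, adjusted p under 0.05), against 0.0393% of the 17792 genes tested. At an unadjusted p under 0.05 there were 0 members, against 8.57% of all genes, and DESeq2 also called 0. The median log2 fold change was 0.02 for the members and -0.01 for all genes, with a median standard error (SE) of 0.10 for a member. The 95% intervals of 40 members lay between -0.48 (Ung) and 0.59 (Ccne2), and E2f1 had the widest interval.

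**Figure D1:**
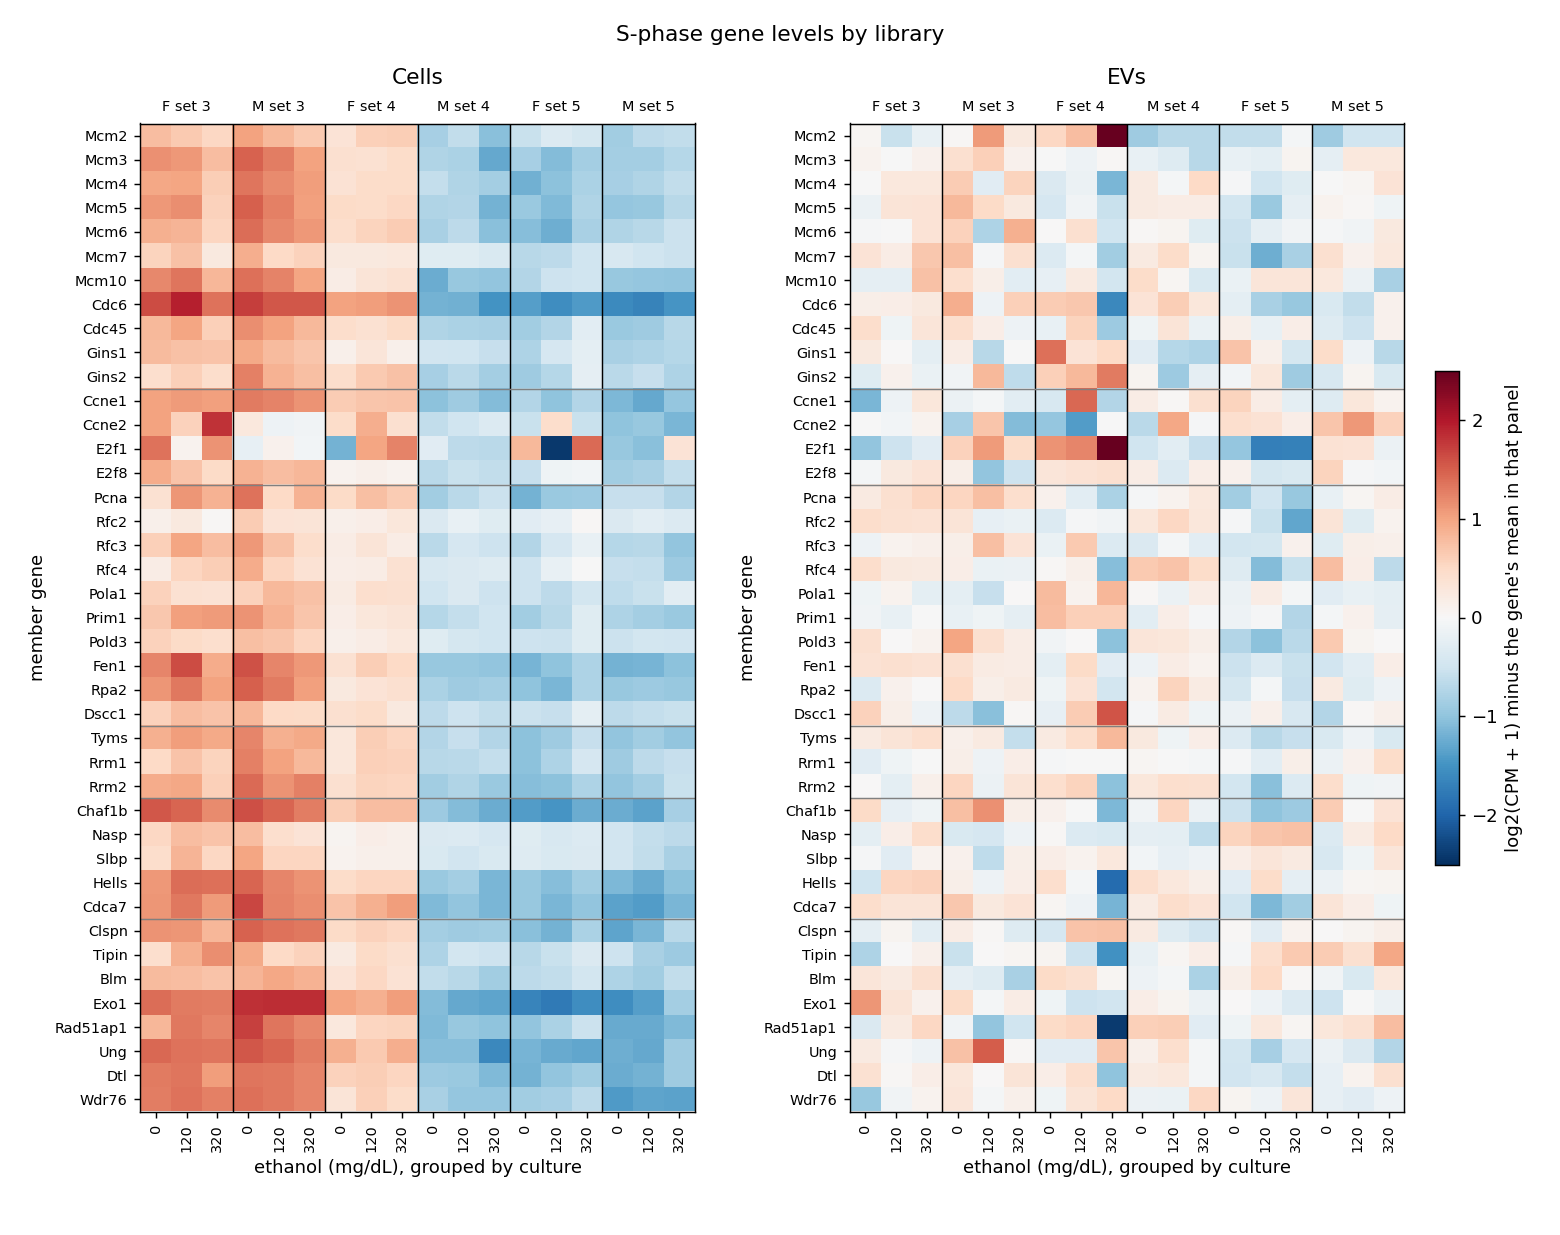
Level of each of the 41 members (rows, by role) in each of the 36 libraries (columns), as log2(CPM + 1) minus the mean of that gene over the libraries of its location. Cell libraries of both set 3 cultures and of the female set 4 culture stand above the other 3 cultures for nearly all rows, while the doses of a culture look alike and EV libraries differ less.

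Among the licensing genes, the subunits of the MCM2-7 helicase overlapped between doses. Mcm2 was at 21.8 to 82.6 CPM (median 39.3) in control cells, 25.4 to 71.7 (median 46.6) at 120 mg/dL and 19.0 to 64.1 (median 43.9) at 320 mg/dL. Mcm3 was at 16.9 to 89.5 CPM (median 30.0) at 0 mg/dL, 14.3 to 77.9 (median 29.5) at 120 mg/dL and 12.4 to 64.2 (median 31.0) at 320 mg/dL. The ranges of both genes overlapped throughout, and the highest library of each was a control. Mcm3 had the smallest p of the 41 at 320 mg/dL, at a log2 value of -0.20 (SE 0.10, adjusted p = 0.596). The other 4 subunits had log2 fold changes of -0.02 (Mcm4, SE 0.09), -0.14 (Mcm5, SE 0.12), -0.02 (Mcm6, SE 0.10) and -0.11 (Mcm7, SE 0.08) at that dose. At 120 mg/dL the 6 values of the helicase subunits lay between -0.11 (Mcm3) and 0.09 (Mcm2).

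Pcna, the clamp that holds polymerases on DNA, was at 19.6 to 119 CPM (median 44.8) in control cells, 23.5 to 99.5 (median 47.5) at 120 mg/dL and 23.7 to 84.0 (median 51.3) at 320 mg/dL. Its log2 fold change was 0.09 (SE 0.14) at both doses. Nucleotide supply gave small positive values. Rrm1, the large subunit of ribonucleotide reductase, was at 31.4 to 158 CPM (median 60.1) at 0 mg/dL and 42.8 to 116 (median 72.4) at 320 mg/dL, or 0.16 on the log2 scale (SE 0.10, adjusted p = 0.696). For the reductase subunit Rrm2 the value was 0.06 (SE 0.10) and for thymidylate synthase, Tyms, 0.10 (SE 0.09). Rad51ap1 had the third smallest p at 320 mg/dL with 0.17 (SE 0.11, adjusted p = 0.722).

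The cyclins and E2F factors that open S phase overlapped between doses as well. Ccne1, which encodes cyclin E1, had medians of 6.73, 6.69 and 7.02 CPM at 0, 120 and 320 mg/dL and a log2 fold change of 0.01 (SE 0.08) at the heavy dose. Ccne2, encoding cyclin E2, was at 8.22 to 69.8 CPM at 320 mg/dL, where the highest library, the female culture of set 3, stood far above the others. E2f8, a repressor of the E2F family, had medians of 3.61, 4.37 and 4.34 CPM. E2f1, an activator of S-phase genes, scattered within cultures, where variation explained by neither culture nor dose took 58.4% of its variance against 15.7% for Ccne2, the next member. Its control, moderate and heavy libraries were at 31.0, 2.42 and 47.6 CPM in the female culture of set 5 and at 7.09, 34.9 and 41.9 CPM in the female culture of set 4. The log2 fold change of E2f1 was 0.56 (SE 0.51) at 320 mg/dL, with an interval of -0.54 to 1.65, and -0.33 (SE 0.53) at 120 mg/dL.

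At 120 against 0 mg/dL, 0 of 41 members were called, against 0% of genes, and 0 had an unadjusted p under 0.05 against 2.5% of genes (DESeq2 called 0 members). The smallest p-values were those of Rrm1 (0.12, SE 0.10), Rad51ap1 (0.13, SE 0.11) and Mcm3 (-0.11, SE 0.10), each with an adjusted p of 1.00. Between 320 and 120 mg/dL again 0 members were called, against 0% of genes, 0 were past an unadjusted p of 0.05 against 3.56% of genes, and DESeq2 called 0. There the smallest p-values belonged to E2f1 (0.88, SE 0.52), Exo1 (0.18, SE 0.11) and Mcm2 (-0.12, SE 0.09).

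Culture by culture, the members moved by small amounts and in different directions at 320 mg/dL. In the male culture of set 3, 37 of 41 members were lower than in its control (median log2 difference -0.34), and in the female culture of set 3, 26 were lower (median -0.10). In the female cultures of sets 4 and 5, 36 and 34 members were higher (medians 0.12 and 0.26). The male culture of set 4 had 27 lower (median -0.05) and the male culture of set 5 had 29 higher (median 0.14). Members of 1 library move together, so these counts describe single libraries, and the same counts over all genes were not made. A test of whether the 320 mg/dL change differed between the sexes called 0 of 41 members in cells, against 0% of genes. At an unadjusted p under 0.05 there were 6 members, against 18% of genes. Their smallest p-values were for Rfc4, a clamp loader subunit (female minus male 0.65, SE 0.17, adjusted p = 0.219), Tipin (0.56, SE 0.20) and Prim1 (0.47).

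**Figure D2:**
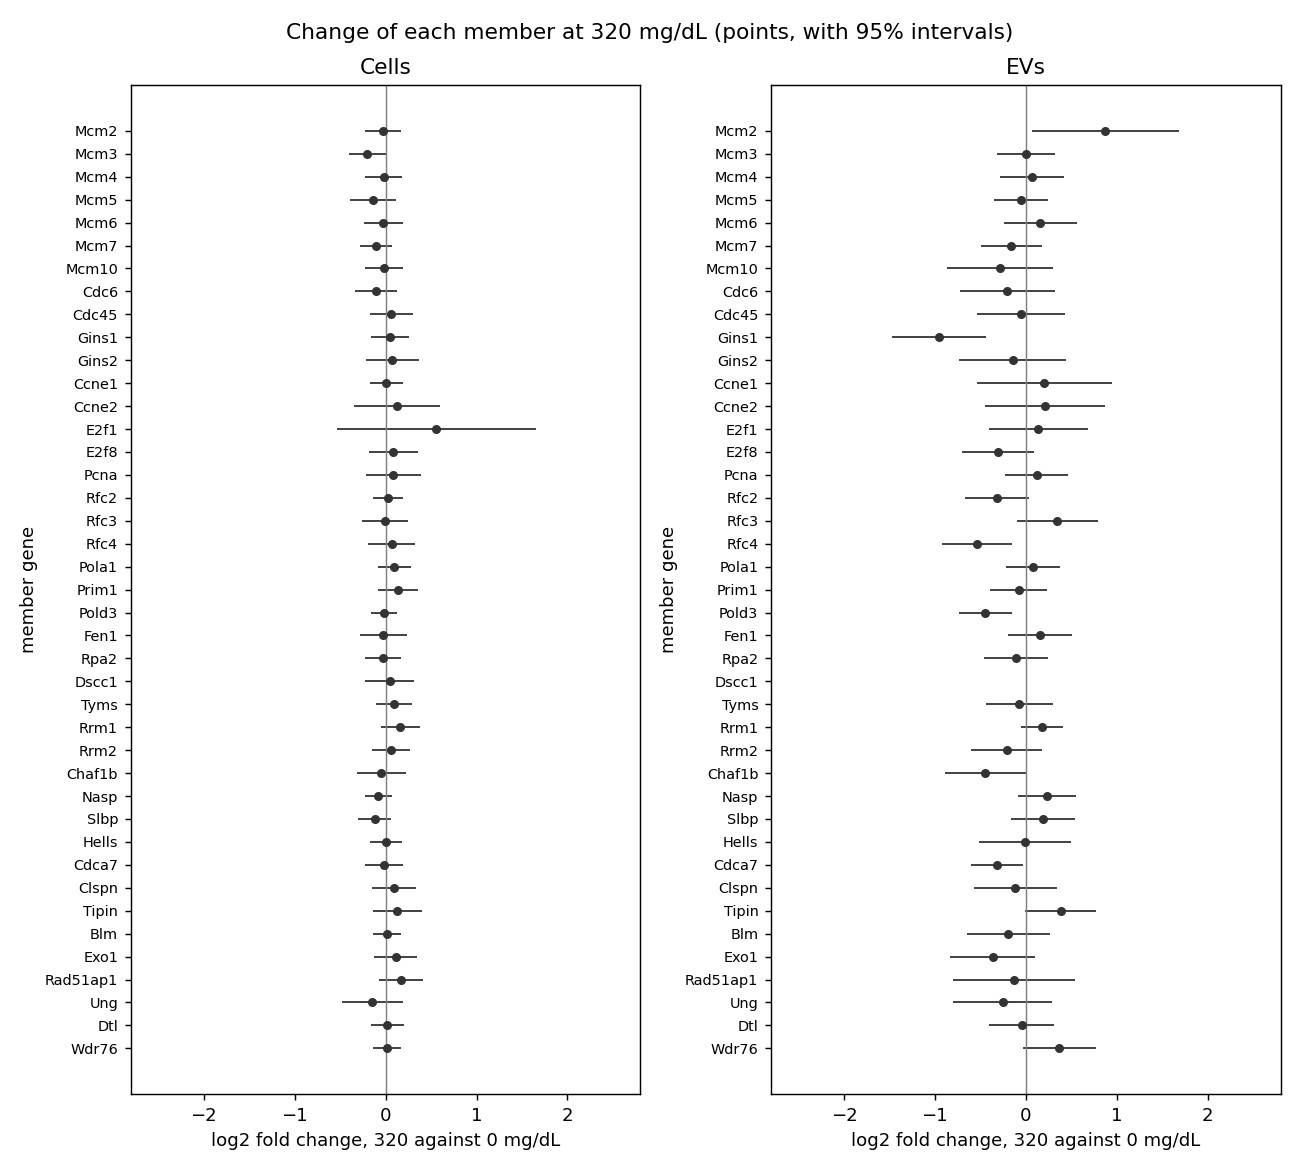
Log2 fold change of each member at 320 against 0 mg/dL in cells and in EVs, with 95% intervals, ordered by role. In cells 40 members lie close to 0 with short intervals and E2f1 has a long one, while intervals in EVs are wider with Gins1, Rfc4 and Pold3 below 0 and Mcm2 above it.

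Other cell cycle lists gave no calls either at 320 mg/dL in cells. None of the 45 other replication genes tested (origin recognition, RPA, polymerase subunits and the like; median -0.01), 23 genes of G1/S control (median -0.06), 7 checkpoint genes (median 0.02) or 20 G2 and mitosis markers was called by edgeR. At an unadjusted p under 0.05 these lists held 1, 4, 0 and 3 genes, against 8.57% of all genes. Of the 20 G2 and mitosis markers, 19 had a value above 0 (median 0.16), against 24 of the 41 members. The share of all genes above 0 is not given here. Genes of a list can move together, and no test was made over a list. The markers and the members are parts of 1 cycle, and these values were read from the same libraries.

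The level of the S-phase genes differed between cultures far more than between doses. The comparisons of pregnancies in this and the following paragraphs were added after the data had been seen. Summed over the 41 members, the female culture of set 3 was at 1554, 1675 and 1508 CPM at 0, 120 and 320 mg/dL, and the male culture of set 3 at 1986, 1680 and 1582 CPM. The female culture of set 4 was at 1089, 1234 and 1232 CPM and the male culture of the same pregnancy at 528, 548 and 505 CPM. In set 5 the female culture was at 504, 504 and 609 CPM and the male culture at 481, 489 and 528 CPM. The cultures fell into a high pair (set 3), an intermediate one (female set 4) and a low group of 3 whose ranges overlapped. The difference between cultures took a median of 97.3% of the variance of a member's log2 level in cells, against 0.182% for dose and 2.44% for the rest. The ratio of the highest to the lowest culture had a median of 4.43 over the members, from 1.76 for Rfc2 to 15.3 for Cdc6. Neither these shares nor this ratio were computed over all genes, so they are not read as particular to the members.

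**Figure D3:**
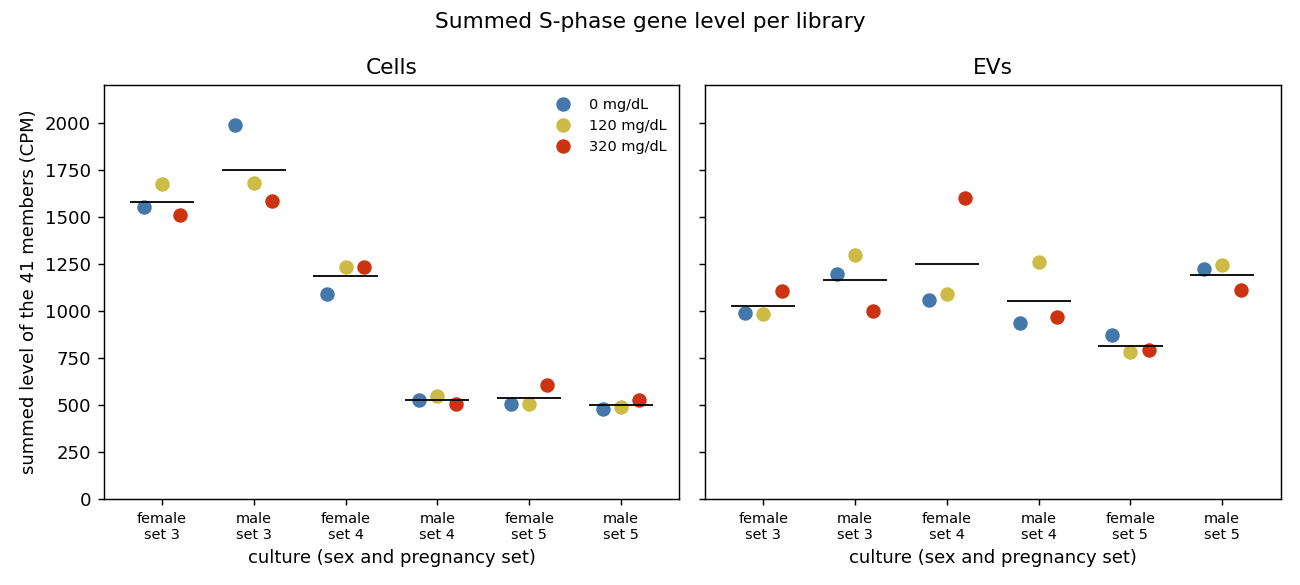
Summed level of the 41 members in CPM (linear axis from 0) in each library, by culture and dose (colors), for cells and EVs, with a line at the mean of each culture's 3 libraries. In cells the set 3 cultures lie at 1508 to 1986 CPM and the male set 4 and both set 5 cultures at 481 to 609 CPM, and in EVs the cultures span 781 to 1599 CPM.

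Cdc6 had the widest gap. This factor, which loads the MCM ring at origins, was at 21.7, 27.2 and 17.9 CPM in the female and 23.4, 20.6 and 20.6 CPM in the male culture of set 3 at the 3 doses. It was at 13.8, 14.0 and 14.9 CPM in the female and 2.24, 2.19 and 1.59 CPM in the male culture of set 4. In set 5 it was at 1.80, 1.502 and 1.76 CPM in the female and 1.43, 1.32 and 1.62 CPM in the male culture. No library of the low group came near those of set 3. The fitted difference of set 3 from set 5 was 3.84 on the log2 scale (SE 0.46, adjusted p = 1.63e-05).

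Mcm5 and Mcm6 followed the same order. Mcm6 was at 80.2, 78.7 and 63.0 CPM and 115, 100.1 and 92.6 CPM in the female and male cultures of set 3. It was at 58.7, 63.5 and 67.8 CPM and 24.1, 27.2 and 20.5 CPM in set 4, and at 20.1, 18.02 and 24.2 CPM and 25.1, 26.3 and 29.2 CPM in set 5. Mcm5 ran from 46.8 to 89.3 CPM in set 3 and from 13.9 to 18.8 CPM in set 5, without overlap. Hells, a chromatin remodeler, was at 60.9, 75.8 and 74.8 CPM in the female and 78.6, 66.8 and 62.3 CPM in the male culture of set 3. Its set 5 libraries were at 14.1, 13.0 and 14.9 CPM and 12.4, 11.1 and 13.3 CPM, with the female culture of set 4 between at 38.9, 41.4 and 41.1 CPM and the male at 14.2, 15.3 and 12.1 CPM.

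In cells, 40 of 41 members were higher in set 3 than in set 5, against 22.3% of the 17792 genes tested, and 0 were lower. The median log2 fold change was 1.80 for the members and 0.03 for all genes. Beside Cdc6, the largest values were those of Exo1, an exonuclease of mismatch repair (3.35, SE 0.49, adjusted p = 7.78e-05), Ung, the uracil glycosylase (3.34, SE 0.49, adjusted p = 8.64e-05), and Chaf1b, a subunit of the histone chaperone CAF-1 (3.11, SE 0.40, adjusted p = 2.80e-05). E2f1 was the member not called (0.54, SE 0.49, adjusted p = 0.393). Of the 41 members, 39 had no overlap between the 6 libraries of set 3 and the 6 of set 5, against 12.5% of all genes that were higher without overlap. By role the medians were 1.44 for cyclins and E2F factors, 1.60 for polymerases, clamp and clamp loader, 1.89 for licensing and helicase, 2.02 for nucleotide supply, 2.42 for chromatin assembly and 2.55 for fork protection and repair. The test takes the 3 libraries of a culture as independent, and with counts summed over doses, 2 cultures a set, 0 members were called (39 at an unadjusted p under 0.05).

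Set 4 lay between, but its cultures parted by sex. Against set 5, 11 of 41 members were higher in set 4, against 1.73% of genes (median 0.73). They were Cdc6, Chaf1b, Cdca7, Wdr76, Dtl, Fen1, Hells, Tyms, Prim1, Mcm7 and Nasp, from 0.35 (Nasp) to 2.04 (Cdc6, SE 0.45, adjusted p = 0.0204). With the female cultures alone 38 members were called and with the male cultures alone 2, with library totals in place of TMM 1, and with counts summed over doses 0 (2 at an unadjusted p under 0.05).

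Genes outside the list were compared between the same pregnancies, where 22.3% of all genes were higher in set 3 and 22.5% lower. Of 45 other replication genes, 43 were higher in set 3 than in set 5 and 1 was lower (Orc4, an origin recognition subunit, -0.28), with a median of 1.48. The 7 checkpoint genes were all higher (median 0.95), and 13 of the 20 G2 and mitosis markers were higher (median 0.61) with 0 lower. In G1/S control, 13 of 23 genes were higher and 6 lower (median 0.59). NSC markers went both ways, with 3 of 7 higher and 3 lower. With counts summed over doses, edgeR called 0 genes of these lists and 0 of all genes. At an unadjusted p under 0.05 there were then 36 of 45 other replication genes (median 1.47), 14 of 23 of G1/S control (median 0.55), 3 of 8 checkpoint genes (median 0.66), 3 of 20 G2 and mitosis markers (median 0.55) and 3 of 7 NSC markers (median -0.61), against 17.8% of all genes. The members' summed level divided by that of the G2 and mitosis markers was 1.09 to 1.97 in set 3, 0.664 to 1.29 in set 4 and 0.608 to 0.759 in set 5. Neuron markers summed to 427 to 793 CPM in set 3 and 597 to 810 CPM in set 5, and glial lineage markers to 128 to 296 and 190 to 264 CPM. These ranges overlapped with the sexes pooled. In male cultures alone, neuron markers were at 427 to 457 CPM in set 3 and 597 to 614 CPM in set 5, without overlap. In female cultures alone, glial lineage markers were at 128 to 185 and 190 to 246 CPM, also without overlap. In set 4, neuron markers were at 834 to 877 CPM in the male and 510 to 606 CPM in the female culture. Their part in the difference between pregnancies was not tested.

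Female against male cells gave values above 0 for all 41 members (median log2 fold change 0.23, against -0.01 for all genes), but 1 was called, against 5.83% of genes, and 2 had an unadjusted p under 0.05, against 22.3%. The member called was Ccne2, at 1.10 (SE 0.30, adjusted p = 0.0419), and E2f1 had 1.01 (SE 0.40, adjusted p = 0.141) with the next smallest p. With the pregnancy as replicate block 3 members were called, Ccne2, Nasp and Wdr76. The direction rested on set 4. Within set 4 all 41 members were higher in the female culture (median 1.22), against 28 of 41 in set 5 (median 0.14) and 9 of 41 in set 3 (median -0.13). Without set 4 the median was -0.15 and 0 members were called, while without set 3 there were 7 and without set 5 there were 0. On library totals the median was 0.02 against -0.15 for all genes, and 0 were called. With counts summed over the doses of a culture 0 were called.

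The second question was how far EVs mirror the S-phase state of their cells. Members were on balance lower in EVs than in cells, and the balance depended on set 3 and on the scaling. Of 41 members, 22 were lower in EVs and 8 higher, against 42.2% and 38.4% of the 15281 genes tested, and 11 were not called. The median log2 fold change was -0.77 for the members and -0.08 for all genes. The test behind these counts takes the 36 libraries as independent. Each culture gave 3 libraries at each location, and each EV library had a paired cell library. The p-values of this test, here and in the next paragraphs, can therefore be too small. Without set 3, 15 members were higher and 11 lower, with a median of 0.14. On library totals in place of TMM, 2 were higher and 31 lower with a median of -1.58, while the median of all genes was -0.88. Taking each pregnancy by itself and comparing the means of its EV and cell libraries, 34 of 41 members were lower in EVs in set 3 (median -1.41), 23 in set 4 (median -0.22) and 13 in set 5 (median 0.44). These values rest on TMM levels, and the same counts over all genes or on library totals were not computed. With each pair of EV and cell library (same culture and dose) as block, 17 members were lower and 11 higher (median -0.43). Ccne1 (adjusted p = 0.102), Fen1 (adjusted p = 0.0689), Clspn (adjusted p = 0.104), Rad51ap1 (adjusted p = 0.196) and Dtl (adjusted p = 0.160) were then not called by edgeR. Gins2 (0.46, adjusted p = 0.0301), Chaf1b (1.04, adjusted p = 0.00374) and Ung (0.96, adjusted p = 0.00903) were called higher with the block. The alternatives included counts summed over doses with the culture as block. Call and direction held in every alternative that tested them for 10 lower members (Blm, Hells, Mcm4, Mcm6, Nasp, Pcna, Pola1, Rfc3, Rrm1 and Slbp) and 2 higher ones (Ccne2 and E2f1).

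**Figure D4:**
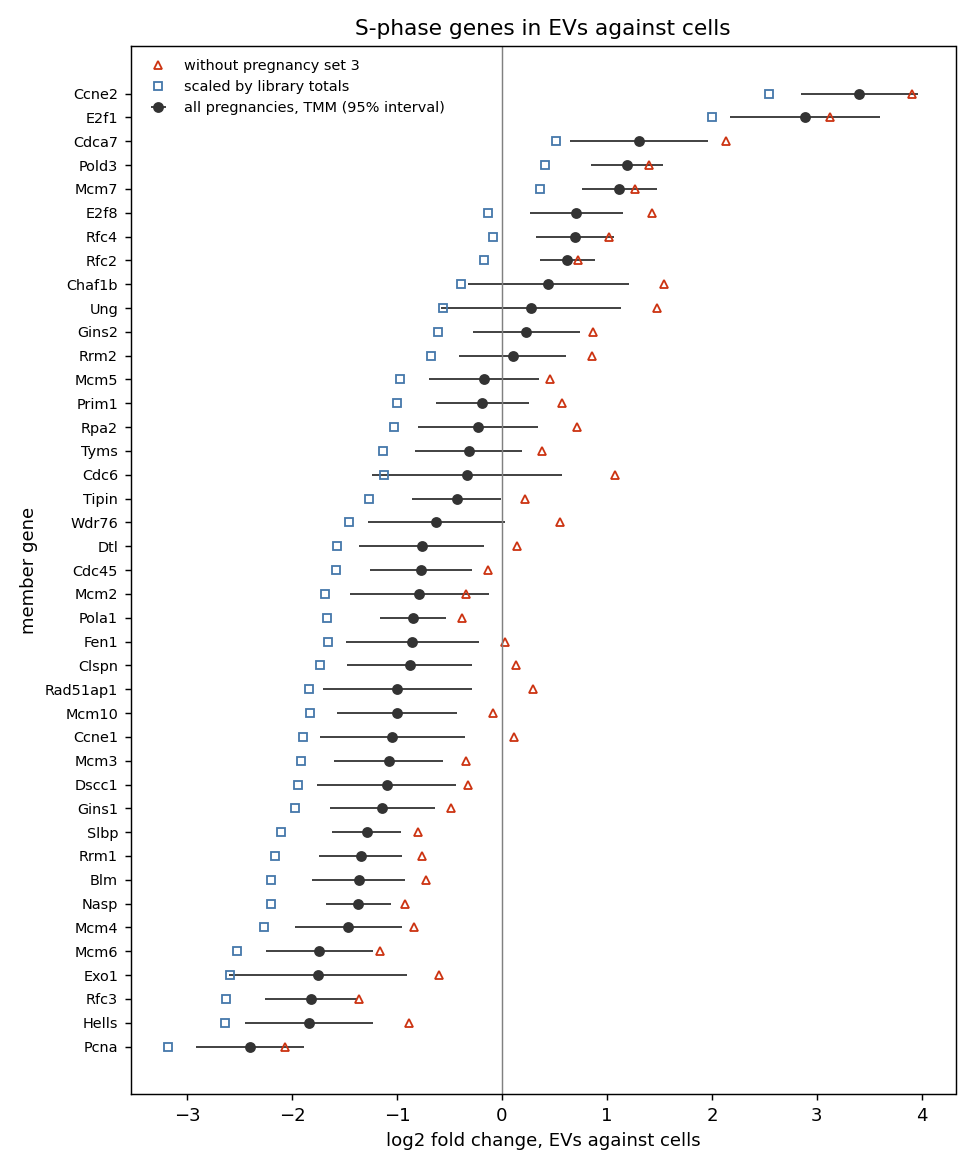
Log2 fold change of each member (rows) in EVs against cells: filled points with 95% intervals for all pregnancies on TMM, triangles without set 3 and squares on library totals. Pcna, Hells, Rfc3 and Mcm6 stay below 0 and Ccne2 and E2f1 above 0 in all 3 settings, while Ccne1, Clspn, Dtl, Fen1 and Rad51ap1 cross 0 without set 3.

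Pcna had the lowest value of the members in EVs against cells. It was at 19.6 to 119 CPM (median 45.2) in the 18 cell libraries and at 4.40 to 16.6 CPM (median 10.2) in the 18 EV libraries, so the 2 locations did not overlap. The difference was -2.40 on the log2 scale (SE 0.25, adjusted p = 7.99e-11). Pcna lies at chromosome 2, 132091082 to 132095234, in build GRCm39. It rested on 3 to 50 counts per EV library. Hells was at 1.70 to 14.2 CPM in EVs (median 9.96) against 11.1 to 78.6 CPM in cells (-1.83, SE 0.30, adjusted p = 1.06e-06). Rfc3, a subunit of the loader that places the clamp, was at 3.01 to 8.30 CPM in EVs against 6.87 to 31.7 CPM in cells (-1.82, SE 0.22). Mcm6 was at 8.30 to 28.4 CPM in EVs, overlapping the low cultures, against 18.02 to 115 CPM in cells (-1.74, SE 0.25). Exo1 had a value of -1.75 (SE 0.42) with all pregnancies. Slbp, which binds the stem-loop of histone messenger RNAs, was at 4.98 to 10.6 CPM in EVs, just below its 10.7 to 39.2 CPM in cells (-1.29, SE 0.16), and Nasp, a histone chaperone, was at -1.37 (SE 0.15). The others called lower were Mcm2, Mcm3, Mcm4, Mcm10, Cdc45, Gins1, Ccne1, Pola1, Fen1, Dscc1, Rrm1, Clspn, Blm, Rad51ap1 and Dtl, from -1.46 (Mcm4) to -0.77 (Cdc45 and Dtl), of which Ccne1, Clspn, Dtl, Fen1 and Rad51ap1 had values above 0 without set 3.

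Ccne2 stood at the other end. Its 18 EV libraries ran from 76.5 to 432 CPM (median 210), all above its highest cell library at 69.8 CPM, and the log2 fold change was 3.40 (SE 0.28, adjusted p = 1.04e-13). The gene spans chromosome 4, 11190303 to 11204947 (GRCm39), and overlaps Ints8 on the opposite strand, so that reads of the pair could have been mixed if strand was not used in counting. E2f1 was at 33.6 to 640 CPM in EVs (median 97.5) against 2.42 to 47.6 CPM in cells (2.89, SE 0.35, adjusted p = 2.64e-09). Also higher were Cdca7, a partner of Hells at chromatin (1.30, SE 0.32), at 17.0 to 63.0 CPM against 4.08 to 41.2 CPM, and Pold3, a subunit of polymerase delta (1.19, SE 0.17), at 25.2 to 106 CPM against 15.4 to 39.0 CPM. On library totals neither was called, with Cdca7 at 0.52 (adjusted p = 0.148) and Pold3 at 0.41 (adjusted p = 0.0679). Cyclin E1 went the other way from cyclin E2, with Ccne1 at -1.04 (SE 0.34, adjusted p = 0.00594), a value that was 0.11 without set 3. No overlap between EVs and cells was seen for 1 higher member, Ccne2, against 9.04% of genes, and for 2 lower ones, Pcna and Slbp, against 14.8% of genes.

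Subunits of the MCM2-7 ring, which act as 1 complex, had unequal EV levels. Mcm7 was higher in EVs (1.12, SE 0.18, adjusted p = 5.60e-07), at 38.3 to 152 CPM against 24.9 to 78.2 CPM in cells. Mcm6 (-1.74), Mcm4 (-1.46, SE 0.25), Mcm3 (-1.08, SE 0.26) and Mcm2 (-0.79, SE 0.33) were lower, Mcm2 at -1.41 (SE 0.21) without the female EV library of set 4 at 320 mg/dL, and Mcm5 was not called (-0.17, SE 0.26, adjusted p = 0.543). Several of these calls depended on the processing. On library totals Mcm7 was not called (0.36, adjusted p = 0.123) and Mcm5 was called lower (-0.97, adjusted p = 0.00192), and without set 3 Mcm3 (-0.34, adjusted p = 0.121) and Mcm2 (-0.35, adjusted p = 0.381) were not called. The Mcm7 locus also holds 3 microRNA genes (Mir25, Mir93 and Mir106b) and overlaps Cops6 and Ap4m1 on the opposite strand. The share of such reads in its counts was not tested. In the nucleotide supply group Rrm1 was lower (-1.35, SE 0.19) at 23.6 to 40.2 CPM in EVs, and Rrm2 (0.10, SE 0.25) and Tyms (-0.32, SE 0.25) were not called. E2f8 (0.71, SE 0.22), Rfc4 (0.69, SE 0.18) and Rfc2 (0.62, SE 0.13) were called higher, with values of -0.13, -0.084 and -0.17 on library totals.

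The other cell cycle lists were read against the same 42.2% of genes lower and 38.4% higher in EVs. Of 45 other replication genes 28 were lower and 4 higher, with Rpa3 (-2.47), Orc4 (-2.41) and Orc5 (-1.87) the lowest and Rfc5 (1.23), Prim2 (0.65) and Ticrr (0.59) the highest of those called. In G1/S control 10 of 23 were lower, led by Myc (-2.23), Rbl1 (-1.45) and Fbxo5 (-1.42), and 8 were higher, led by E2f2 (2.60) and the D-type cyclins Ccnd2 (1.83) and Ccnd3 (1.52). Of 20 G2 and mitosis markers 13 were lower, among them Top2a (-2.00), Bub1 (-1.97) and Hmmr (-1.61), and 2 higher, Cenpf (0.80) and Birc5 (0.38). Of 7 checkpoint genes 5 were lower, with Rad17 at -1.33, Atr at -1.15 and Rad1 at -1.02, and Hus1 was higher (1.37). Without set 3 the other replication genes were called lower in 16 and higher in 13 cases (median -0.14), G1/S control in 7 and 8 (median 0.07), the checkpoint genes in 3 and 1, and the G2 and mitosis markers in 10 and 2 (median -0.48). On library totals the other replication genes were lower in 39 cases and higher in 1, G1/S control in 14 and 3, the checkpoint genes in 6 and 1, and the G2 and mitosis markers in 19 and 0, and Prim2, Ticrr and Birc5 had values below 0.

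Markers of cell types moved along with the location as well. Of the 7 NSC markers tested 4 were lower and 2 higher in EVs (median -0.74), and their sum was 762 to 1324 CPM in EVs against 2589 to 4089 CPM in cells. Without set 3 the same counts of 4 and 2 were found (median -0.61), and on library totals 6 were lower and 1 higher (median -1.49). Of 4 neuron markers tested 2 were lower and 0 higher, and of 5 glial lineage markers 2 were lower and 1 higher. The 2 endothelial and mesenchymal markers tested were higher in EVs (median 2.02, or 1.18 on library totals), as was the 1 microglia marker tested (2.05, or 1.22 on library totals). Markers of these types were low in cells, so one could pass the filter on low counts through its EV libraries alone. Higher values in EVs were thus favoured by the filter and are not read as a result. The microglia markers summed to 0 to 11.7 CPM in EVs and 0.335 to 0.641 CPM in cells, and the endothelial and mesenchymal markers to 0.845 to 3.51 CPM in cells. Their part in the result for the members was not tested.

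EVs did not carry the difference between pregnancies at the size seen in cells. Summed over the members, EV libraries were at 985 to 1299 CPM in set 3, 937 to 1599 CPM in set 4 and 781 to 1244 CPM in set 5, and these ranges overlapped. Cyclins and E2F factors, Ccne2 and E2f1 foremost, gave 220 to 854 CPM of this sum in EVs, against 21.4 to 129 CPM in cells. Licensing and helicase genes summed to 241 to 347 CPM in set 3 EVs and 139 to 240 CPM in set 5 EVs. For every other role the sums of these sets overlapped in EVs. The ratio of highest to lowest culture had a median of 1.97 in EVs against 4.43 in cells. Culture took a median of 53.9% of a member's variance in EVs, dose 7.83% and the rest 33.4%. The ratio and the shares were not computed over all genes in EVs either. Set 3 against set 5 in EVs gave 10 of the 40 members tested higher, against 13.1% of genes, and 2 lower, against 10.9%, with a median of 0.37. Those with the largest values were Cdc6 (0.98, SE 0.25, adjusted p = 0.0129), Ung (0.97, SE 0.27), Pcna (0.89, SE 0.17) and Cdca7 (0.76, SE 0.18), and the lower pair was Tipin (-0.71, SE 0.20) and Nasp (-0.49, SE 0.15). Without overlap of the libraries 3 of 40 members were higher, against 2.06% of genes. Set 4 against set 5 in EVs gave 2 members higher (Cdc6 at 0.91 and Tyms at 0.74), against 2.97% of genes, and 1 lower (Nasp at -0.64), against 2.54%. For set 3 on library totals 20 members were higher and 0 lower, with medians of 0.83 for the members and 0.49 for all genes, and with counts summed over doses 0 were called (10 at an unadjusted p under 0.05).

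**Figure D5:**
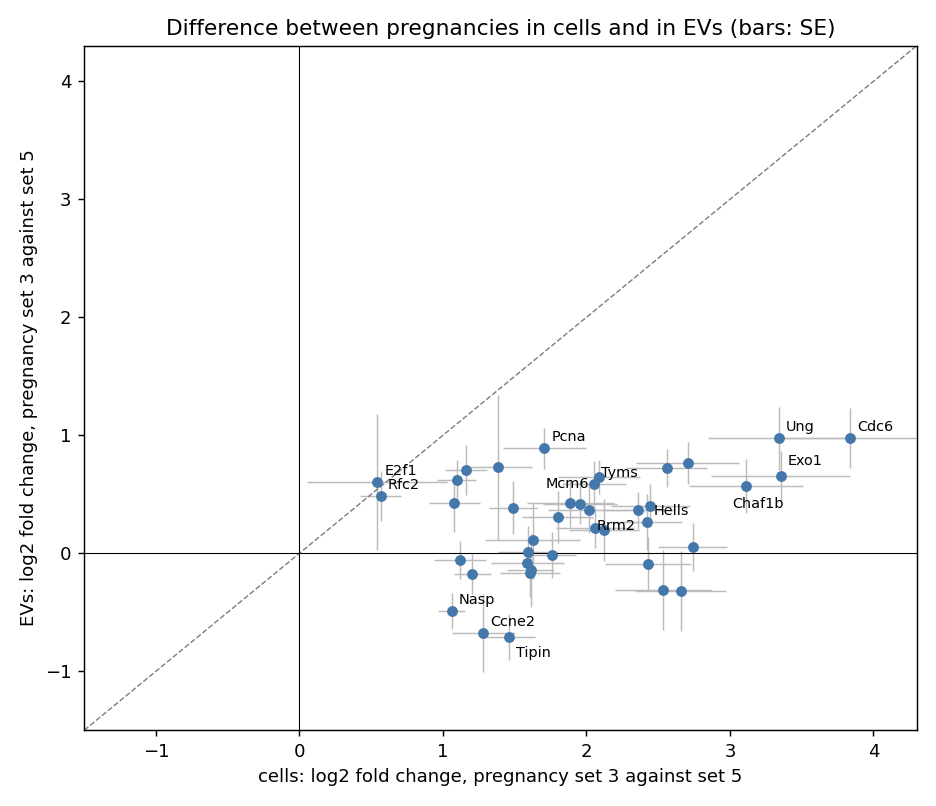
Log2 fold change of set 3 against set 5 for each member in cells (horizontal axis) and in EVs (vertical axis), for the 40 members tested in both, with SE bars and a dashed line of equal change. Values of 0.54 to 3.84 along the cell axis stand against -0.71 to 0.98 along the EV axis, and most points lie below the line.

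A direct test of that difference, the EV to cell ratio in set 3 against set 5, called 33 of 41 members lower and 0 higher, against 7.33% of genes lower (median -1.51 for the members and -0.07 for all genes). The lowest were Rad51ap1 (-2.74, SE 0.50, adjusted p = 0.000742), Cdc6 (-2.60, SE 0.50, adjusted p = 0.00110), Ccne1 (-2.57, SE 0.47, adjusted p = 0.000804) and Wdr76 (-2.48, SE 0.30, adjusted p = 1.88e-05). Cdc6 showed this plainly in its libraries. In EVs of set 3 it was at 8.22, 8.27 and 8.88 CPM (female) and 14.5, 6.64 and 11.5 CPM (male), and in EVs of set 5 at 6.03, 3.74 and 3.30 CPM (female) and 5.40, 4.41 and 7.95 CPM (male). On TMM levels, Cdc6 in EVs was thus under its cell level in set 3 and above it in set 5. Pcna, Mcm2, Rfc4, Mcm7, Pold3, E2f1, Rfc2 and Dscc1 were not called. On library totals 22 members were lower (median -1.23, against 0.19 for all genes). With counts summed over doses 1 member was called (Chaf1b) and 24 had an unadjusted p under 0.05. Set 3 and set 4 EV libraries were also shallower (medians of 2.48 and 2.78 M counts, against 4.54 M counts in set 5), and the part of depth in this difference was not tested.

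Ethanol changed no member past the threshold in EVs, where 40 of the 41 were tested. Dscc1 fell below the filter on low counts. At 320 against 0 mg/dL 0 were called, against 0.0842% of 11880 genes, and 6 had an unadjusted p under 0.05, against 11.9% of genes. The median log2 fold change was -0.06 (0.01 for all genes). Summed levels were 874 to 1223 CPM at 0 mg/dL, 781 to 1299 CPM at 120 mg/dL and 795 to 1599 CPM at 320 mg/dL, and they overlapped. DESeq2 called 0 members as well.

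The smallest p in EVs at 320 mg/dL was that of Gins1, a subunit of the GINS complex of the replicative helicase. It was at 2.56 to 10.2 CPM (median 4.52) in control EVs, 1.64 to 4.43 CPM (median 3.15) at 120 mg/dL and 1.52 to 5.09 CPM (median 2.43) at 320 mg/dL, on 1 to 21 counts per library. Each of the 6 cultures had a lower EV level at 320 mg/dL than in its control, though the groups overlapped. The log2 fold change was -0.95 (SE 0.24, adjusted p = 0.136). At 120 mg/dL it was -0.71 (SE 0.23, adjusted p = 0.769), from the same controls. Pold3 (-0.44, SE 0.14, adjusted p = 0.192) and Rfc4 (-0.54, SE 0.18, adjusted p = 0.229) had the next smallest values at 320 mg/dL, and Rfc4 and Chaf1b (-0.45, SE 0.21) were also lower in all 6 cultures. How many of all genes were lower in all 6 cultures was not counted. Mcm2 had a positive value of 0.87 (SE 0.38, adjusted p = 0.383), which came with 251 CPM in 1 library, the female culture of set 4. The other 5 EV libraries at that dose were at 13.1 to 25.7 CPM, and without this library the value was 0.27 (SE 0.19, adjusted p = 0.641) while that of Gins1 was -0.98 (SE 0.27, adjusted p = 0.205).

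At 120 mg/dL 0 of 40 members were called in EVs, against 0.00842% of genes, with 3 at an unadjusted p under 0.05 (Gins1, E2f8 at -0.48, SE 0.19, and Pold3 at -0.32, SE 0.14) against 6.26% of genes, and DESeq2 called 0. Between 320 and 120 mg/dL 0 were called, against 0% of genes, with 0 at an unadjusted p under 0.05 against 3.69%, and DESeq2 called 0. Several members kept nearly flat EV levels over the doses. Rrm1 had EV medians of 28.4, 27.8 and 30.7 CPM at 0, 120 and 320 mg/dL, Mcm6 of 14.8, 14.3 and 15.7 CPM, and Pcna of 9.74, 10.0 and 11.2 CPM.

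The EV to cell ratio of each dose against control, paired within cultures, called 0 of 41 members at 320 mg/dL, against 0% of 18728 genes, and 0 at 120 mg/dL, against 0.0107%. At an unadjusted p under 0.05 there were 5 and 2 members, against 5.37% and 3.35% of genes, and DESeq2 called 0 at both doses. At 320 mg/dL the smallest p-values were those of Gins1 (-1.07, SE 0.31, adjusted p = 0.622), Rfc4 (-0.62, SE 0.22) and Mcm2 (0.74, SE 0.29). At 120 mg/dL they were those of Gins1 (-0.85, SE 0.30), E2f8 (-0.63, SE 0.29) and Rfc4 (-0.42, SE 0.21).

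In EVs females were compared with males over 38 members, and whether the values differed from those in cells was not tested. Of these members 1 was called, against 11.1% of genes, and 6 had an unadjusted p under 0.05, against 31.1%. The member called was Blm, a helicase of the RecQ family, higher in female EVs by 0.69 (SE 0.17, adjusted p = 0.0231). Pold3 (-0.54, SE 0.18, adjusted p = 0.0558) and Chaf1b (-0.65, SE 0.22, adjusted p = 0.0604) came next and had values below 0. With the pregnancy as replicate block 8 members were called, Blm, Nasp and Pola1 higher and Cdca7, Chaf1b, Mcm5, Mcm7 and Pold3 lower in female EVs, while with counts summed over doses 0 were called (3 at an unadjusted p under 0.05). Without set 3 there were 6 called (Cdca7, Chaf1b, Mcm5, Mcm7, Pold3 and Rfc4), without set 4 there was 1 (E2f1) and without set 5 there were 0. A sex difference of the 320 mg/dL change in EVs was called for 0 of 40 members, against 0% of genes, with 1 at an unadjusted p under 0.05, Mcm10 (1.66, SE 0.43, adjusted p = 1.00), against 3.96% of genes.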

How the data were processed

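RNA-seq libraries were made from neurospheres and from EVs recovered from their medium by filtration, concentration and ultracentrifugation. The authors depleted ribosomal RNA, trimmed reads with Trimmomatic, aligned them with STAR to mouse build mm39 and counted them with HTSeq. The values they deposited are raw counts per gene, without normalization. Whether counting used strand was not given in the sources used here, and 27 of the 41 members overlap another annotated gene, 11 of them a protein-coding one on the opposite strand. Besides Sox2 and Cdk2, 5 listed genes that are not members had no counts (Pold4, Asf1a, Aqp4, P2ry12 and Alas2).

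Counts were tested in R 4.3.3 with the edgeR 4.0.16 quasi-likelihood test (TMM, filterByExpr with a minimum count of 10 and a minimum total of 15), with Benjamini-Hochberg adjustment over all genes tested and a threshold of 0.05. Log2 levels used a prior count of 1. Doses were fitted with the culture as block, EVs against cells with sex and dose, and sex with dose. The members and lists were chosen with earlier results of these data known, so no test was made over a list. Values were given for Pcna, Mcm2 to Mcm7, the cyclin E and E2F genes, Rrm1, Rrm2 and Tyms, and for the members with the largest called changes or the smallest p-values in each comparison. The labels put the doses of a culture on the same cells, and control and ethanol libraries of a culture deviated together (r = 0.43 to 0.86 in cells and 0.14 to 0.60 in EVs, 24 of 24 pairs over 0.1). Female and male libraries shared a pregnancy by label, with a median r of 0.07 in cells and -0.20 in EVs. No 2 libraries were identical. The scripts were tested on simulated data. Alternatives were DESeq2 1.42.0, other scalings, no filter, left-out pregnancies, replicate blocks, thinning and summed counts. The pregnancy comparisons, the alternatives for the other lists, the summed counts with a culture block and the fits without the set 4 female EV library at 320 mg/dL were added after seeing the data. P-values measure the spread between these libraries. Figures were drawn with matplotlib 3.10.9.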

Additional observations from a re-analysis of the deposited data

Results flagged for a closer look

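Of 90 groups of 6 libraries examined (each dose and location, for the 14 members followed in every group and for the summed level), 5 held a library that stood apart from the other 5 by Dixon's 95% criterion for 6 values. Chance gives about 1 in 20 groups. Mcm2 was at 251 CPM in EVs of the female culture of set 4 at 320 mg/dL, on 148 counts, against 13.1 to 25.7 CPM in the other EV libraries of that dose. In the same library E2f1 was at 640 CPM, against 34.1 to 155 CPM. The size of this gap rests on the TMM scaling. The library had 377 E2f1 counts in a total of 1.55 M counts. The EV library of the male culture of set 3 at that dose had 284 in 1.61 M. Dixon's criterion was not applied to levels on library totals. Mcm3 was low, at 10.9 CPM, in EVs of the male culture of set 4 at 320 mg/dL, where the others were at 18.7 to 22.2 CPM. Ccne1 was at 11.1 CPM, on 10 counts, in EVs of the female culture of set 4 at 120 mg/dL, against 3.10 to 4.41 CPM. In cells, Ccne2 was at 69.8 CPM in the female culture of set 3 at 320 mg/dL, against 8.22 to 25.8 CPM.

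The EV to cell difference of 33 members was lower in set 3 than in set 5 by the interaction term. The comparison was chosen after seeing the data, and with counts summed over doses 1 member was called.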

How the results depend on the processing

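Of 151 recomputed counts of called members, 119 stayed within 1.5 times the reported count. The counts of 0 for doses in cells, for the EV to cell ratio by dose and for the sex difference of the 320 mg/dL change were 0 under every alternative run, and the fits without a replicate block also gave 0 for the doses. For 320 mg/dL in EVs, no filter on low counts called 1 member, Mcm2. Female against male cells gave 0 called on library totals, 0 with no filter, 0 on summed counts, 3 with the replicate block and 0 to 7 when a pregnancy was left out. Female against male EVs gave 3 with DESeq2, 2 with median-of-ratios size factors, 0 on library totals, 2 with no filter, 0 on summed counts, 8 with the replicate block and 0 to 6 when a pregnancy was left out. EVs against cells gave 17 of 24 testable members in libraries thinned to the smallest. Set 3 against set 5 gave 0 in cells on summed counts, and in EVs 20 on library totals, 0 on summed counts and 3 in male cultures alone. Set 4 against set 5 in cells gave 23 with DESeq2, 7 with median-of-ratios size factors, 1 on library totals, 0 on summed counts, 38 in female and 2 in male cultures. In EVs it gave 3 as reported and 5 with DESeq2, 1 on library totals, 0 on summed counts and 1 in male cultures. The ratio of set 3 to set 5 gave 1 on summed counts. Beside fewer samples in the summed and single-sex fits, the cause of these moves was not tested.

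Of 366 recomputed values of single members, 306 kept direction and call, 52 kept direction alone and 8 reversed. EVs against cells reversed without set 3 for Ccne1 (0.11), Clspn (0.14), Dtl (0.14), Fen1 (0.033) and Rad51ap1 (0.30), which were at -1.41, -1.24, -1.01, -1.03 and -1.43 without set 5, and on library totals for E2f8 (-0.13), Rfc2 (-0.17) and Rfc4 (-0.084). Counting error also limits EV values, since an EV library held as few as 17 members with 10 counts.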
